A study of Mus musculus with 6 samples.

Results

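The poly(A) sites described here lie in the last exon of mouse genes whose RefSeq transcript is noncoding, meaning that its accession begins with NR. They were read from a table of cleavage and polyadenylation sites in whole testis. From 1082 such last-exon entries, 116 that shared their site with another entry and 265 that carried the names of RIKEN clone series from testis were set aside. This left 701 sites in 320 genes, of 73540 entries in the table. Testes of FVB mice were taken at 1, 2, 3, 4, 5 and 6 weeks of age (1w to 6w), with 1 library per week. Poly(A)+ RNA was selected from the total RNA for each library, so RNA without a poly(A) tail was not sampled. The labels name no treatment, and how many animals were pooled per library is not given in the sources used here. The 1w-3w libraries were set against the 4w-6w libraries, 3 against 3. No week has a replicate, so the spread on each side holds change with age as well as error.

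A noncoding RNA gene can still make a capped and polyadenylated RNA. Cleavage usually takes place a short way downstream of the hexamer AATAAA or its commonest variant ATTAAA, the poly(A) signal. Several classes of such genes are known: hosts that carry small nucleolar RNAs (snoRNAs, guides of ribosomal RNA modification) or microRNAs in their introns or exons, imprinted RNAs transcribed from 1 parental allele, nuclear architectural RNAs, antisense RNAs and transcribed pseudogenes. During the first wave of spermatogenesis the testis passes from somatic cells and spermatogonia to meiotic spermatocytes and then to haploid spermatids, and spermatids are known for broad transcription of noncoding loci.

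The table held 3512699 to 5450015 reads per library, so 1 RPM (reads per 1000000 reads in the table) stood for 3.51 to 5.45 reads. Summed levels of last-exon reads of marker genes moved with age. The 9 Sertoli cell markers with reads stood at 4073 RPM at 1w, 6074 RPM at 2w and 413 RPM at 6w. Those of spermatocytes (10 markers) were highest at 3w, at 15395 RPM. The 8 spermatid markers stood at 529 RPM at 1w, 79.7 RPM at 2w and 240234 RPM at 6w. Because the tissue was sampled whole, a lower value can come from fewer cells of a type or from less RNA per cell, and these cannot be told apart. The part of cell composition in each result was not tested.

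Noncoding last-exon sites took a small share of each library. In the 1w to 3w libraries they held 0.955%, 0.753% and 0.693% of all reads, and in those of 4w to 6w 0.680%, 0.628% and 0.741%. The share was highest at 1w and lowest at 5w, and the sides overlapped. It averaged 0.801% ± 0.137 (SD, n = 3) at 1w-3w and 0.683% ± 0.0563 (SD, n = 3) at 4w-6w, a difference of -0.118 percentage points (exact two-sided permutation test, p = 0.2, where 0.1 is the smallest value the design allows). Without the 10 sites with most reads the means were 0.245% and 0.247%. Of the 186203 reads at these sites, 44.0% came from 2 of them and 66.6% from 10. At the other end, 283 sites had 5 reads or fewer in all 6 libraries together, the median was 8 reads, and 162 sites had at least 50.

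**Figure D1:**
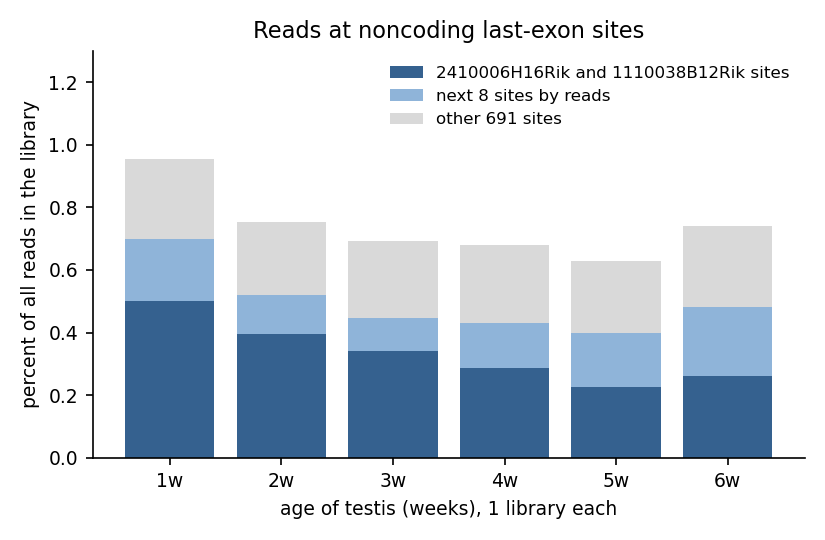
Percent of all reads in each library that fell at the 701 noncoding last-exon sites, one bar per week (1 library each, no error bars), divided into the 2 sites with most reads, the next 8 and the other 691. The lowest segment shrank from 0.500% at 1w to 0.261% at 6w while the top segment stayed between 0.230% and 0.260%.

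The 2 leading sites both ended snoRNA host genes. The site of 2410006H16Rik at chr11:62418311 (plus strand, mm9), outside coding genes, lies at the end of a gene that holds Snord49a, Snord49b and Snord65. That of 1110038B12Rik at chr17:35087186 (minus strand) ends a gene with 3 annotated snoRNAs. The bases leading to the cleavage position of these and of other sites described in this section are given here, 5′ to 3′, with AATAAA in capitals where it lies in the window.
2410006H16Rik, chr11:62418282-62418311: ttaaaAATAAAcatttgtttataaaccaga
1110038B12Rik, chr17:35087186-35087215: aacgatctcAATAAAatacttttaaaagta
H19, chr7:149761436-149761465: tgggtccatcAATAAAtacagttacagtca
Ppp1r2-ps7, chrX:22039491-22039520: catttgtcaaatacaaacctcgttactgta
Gm9999, chr7:54243137-54243166: gtaggtttcgcataaagtaatcgcacatta
AI507597, chr4:141171493-141171522: ctaatggaagtcttgttttccacagtcaaa
All of these are among the 10 sites with most reads. The first 3 carry AATAAA 20 to 25 bases before the position. The last 3, which the test below called higher in older testis, carry neither AATAAA nor ATTAAA. They do not stand for all 42 sites called higher, of which 18 carried AATAAA and 4 carried ATTAAA.

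At the 2410006H16Rik site the level was 3660, 2742 and 1717 RPM in the younger libraries, by age, and 1127, 790 and 763 RPM in the older ones. Every 4w-6w library was below every 1w-3w library in RPM. The fitted log2 change, which is scaled to the typical site and not to the library total, was -0.46 (SE 0.49, edgeR adjusted p = 0.44). At the 1110038B12Rik site the level was 1338, 1197 and 1708 RPM at 1w to 3w and 1739, 1459 and 1846 RPM at 4w to 6w. These sides overlapped in RPM, and the log2 change was 1.39 (SE 0.52, edgeR adjusted p = 0.067). So neither leading host passed the test.

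Which noncoding sites differed between the older and the younger testes was asked with edgeR's quasi-likelihood test over all 18366 sites with enough reads. Of the 701 sites, 136 (in 115 genes) passed the filter on low counts and 565 did not. The filter kept sites with reads in at least as many libraries as a side holds, so a site could pass on its high side alone, and the counts below describe the sites that passed. Of these, 42 sites in 36 genes were higher at 4w-6w and 23 sites in 21 genes were lower, which is 30.9% and 16.9% of those tested. Over all sites tested, 21.8% were higher and 22.6% were lower. The median log2 change was 1.31 over the noncoding sites and 0.03 over all sites.

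The split depended on the scaling. With library totals in place of TMM the median log2 change was 0.18 over the noncoding sites and -1.08 over all sites. Under that scaling 31 noncoding sites (22.8%) were higher and 50 (36.8%) lower, against 15.8% and 45.8% of all sites. Higher sites were then 38.3% of the calls against 64.6% with TMM. Among the 42 sites, 0610012G03Rik and BC029722, both named here because their sign turned under that scaling, went from 1.10 and 1.14 to -0.05 and -0.03. DESeq2 called 65 noncoding sites higher (47.8%) and 25 lower (18.4%), against 34.5% and 24% of all sites it tested. The number of calls also rested on single libraries, over all sites as well as over the noncoding ones. Without 5w or 6w, 13 and 14 of 168 tested noncoding sites were higher, and without 3w 90 of 176 were. Over all sites 1660, 1605 and 8771 were then higher, against 3996 with every library. The 23 lower sites became 10 without 1w, 8 without 2w, 58 without 3w, 3 without 4w, 1 without 5w and 0 without 6w (edgeR, 23 at an unadjusted p under 0.05). Over all sites the 4143 lower calls became 7134 without 3w, 47 without 5w and 62 without 6w. All 6 such fits kept 13 of the 42 higher noncoding sites and 0 of the 23 lower ones.

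**Figure D2:**
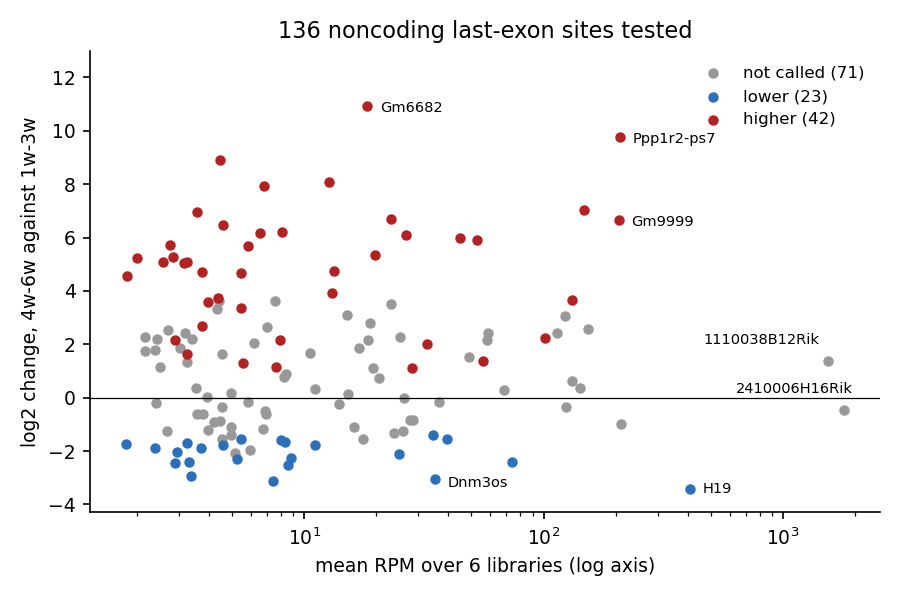
Each point is one of the 136 noncoding last-exon sites tested, by its mean RPM over the 6 libraries (log axis) and its log2 change at 4w-6w against 1w-3w (edgeR, TMM). Red marks the 42 higher sites and blue the 23 lower ones at an adjusted p under 0.05; H19 lies lowest at -3.42, and points at the top with no reads at 1w-3w are fitted values that depend on the prior count.

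Higher sites are described first. Ppp1r2-ps7, an X-linked pseudogene of a protein phosphatase 1 inhibitor gene, had 1, 0 and 10 reads at 1w to 3w and 979, 2249 and 2919 reads at 4w to 6w. Its RPM was 429-fold higher in the older libraries (95% interval 240 to 860, counting error only), and its log2 change was 9.77 (SE 1.59, edgeR adjusted p = 0.0071). A sister pseudogene chosen after its values were seen, Ppp1r2-ps9 at chrX:14687712, had 0, 0 and 17 reads, then 164, 236 and 358 (log2 change 6.11, SE 1.55, edgeR adjusted p = 0.023). Reads that match near-identical copies could be divided between them and their parent gene, so levels of pseudogenes are uncertain.

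Gm6682, a pseudogene at chr12:4790340, had no read at 1w, 2w or 3w and 95, 231 and 209 reads at 4w to 6w. That is at least 137-fold higher in RPM, taking 3 reads over the younger libraries as the floor (edgeR adjusted p = 0.0044). The long noncoding RNA 5033406O09Rik at chr12:113181325 likewise had no read before 4w and then 26, 36 and 69, at least 33.5-fold higher (edgeR adjusted p = 0.0065). Gm5334, a transcribed pseudogene at chr7:75764895, went from 2, 0 and 0 reads to 62, 126 and 187, a ratio of 144 (95% interval 39.6 to 1194). In these 3 genes every older library was above every younger one, and the calls were kept in all 6 fits without a library.

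Among abundant rising sites, Gm9999 at chr7:54243166 had 6, 1 and 86 reads and then 1031, 1628 and 3367. Its RPM was 49.8-fold higher (95% interval 40.6 to 61.8) with a log2 change of 6.66 (SE 1.73, edgeR adjusted p = 0.024). AI507597 is read antisense to the coding gene Tmem82 and rose at 3 sites within 204 bases. The largest, at chr4:141171522, had 2, 1 and 47 reads, then 805, 1455 and 1999 (log2 change 7.05, SE 1.65, edgeR adjusted p = 0.019). The site at chr4:141171485 had 1, 0 and 9 reads and then 117, 263 and 282, and the one at chr4:141171318 had 0, 0 and 1 read and then 25, 56 and 124. Gm20268, also chosen for its values, rose at 4 of its 6 sites, spread over 368 bases of chromosome 1, with log2 changes of 4.66 to 5.71. Sites of 1 gene this close share their transcripts and are not independent.

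Other members of the group that rose had far fewer reads. Klk1b7-ps, a pseudogene of the kallikrein family, had 0, 0 and 1 read and then 18, 27 and 60 (edgeR adjusted p = 0.0054). Thap6, classed by RefSeq as a transcribed pseudogene, had 0, 0 and 2 reads at its called site, then 32, 48 and 49 (edgeR adjusted p = 0.0050). Its 7 last-exon sites together had 14, 5 and 10 reads and then 47, 65 and 69, so the gene was read from 1w on. At 2810408I11Rik both main sites rose: the larger one went from 66, 68 and 285 reads to 889, 938 and 1425 (log2 change 3.64, SE 0.81, edgeR adjusted p = 0.016). Pldi, a mouse gene known for transcription in haploid male germ cells and named after its values were seen, had 1, 0 and 4 reads and then 38, 61 and 135 (log2 change 6.19, SE 1.03, edgeR adjusted p = 0.0076).

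Several sites were already high at 3w, and for these the comparison of sides was blunt. Gm2762 at chr13:53549907 had 0, 2 and 512 reads at 1w to 3w, then 889, 892 and 1039, and its log2 change of 3.05 had an SE of 2.08 (edgeR adjusted p = 0.25). Gm6981, a transcribed pseudogene on chromosome 9, had 2, 3 and 87 reads, then 121, 150 and 141 (log2 change 2.78, SE 1.34, edgeR adjusted p = 0.12). At 1110006O24Rik the level was 7.28, 7.12 and 94.1 RPM, then 91.7, 73.1 and 76.5 RPM (edgeR adjusted p = 0.14). D130020L05Rik went from 22.6 and 29.9 RPM to 190 RPM at 3w and 272 RPM at 6w (edgeR adjusted p = 0.066). At 2700046G09Rik the counts were 36, 52 and 267 reads, then 385, 363 and 458 (log2 change 2.42, SE 0.87, edgeR adjusted p = 0.058). In each of these genes the largest step between neighbouring weeks lay between 2w and 3w.

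Counted over the 162 noncoding sites with at least 50 reads, 53 (32.7%) were 2-fold or more above their 2w level in RPM at 3w, on a log2(RPM + 1) scale, and 33 (20.4%) were 2-fold or more below it. Of all 17465 last-exon sites with that many reads, 19.6% were above and 22.9% below. From 3w to 4w as many noncoding sites went down by that much as up, 32 (19.8%) each way with a median of -0.25, against 12.5% up and 31.7% down of all last-exon sites, with a median of -0.64. Between 1w and 2w, 4w and 5w, and 5w and 6w, at most 5 noncoding sites went up and at most 10 down by 2-fold. The library with the highest level was 1w for 52 of the 162 sites (32.1%), 2w for 25, 3w for 26, 4w for 11, 5w for 10 and 6w for 38 (23.5%). Of all last-exon sites, 33.8% were highest at 1w and 9.90% at 6w. With TMM-scaled libraries the 6w shares were 39.5% and 23.3%. These are single libraries and were not tested.

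**Figure D3:**
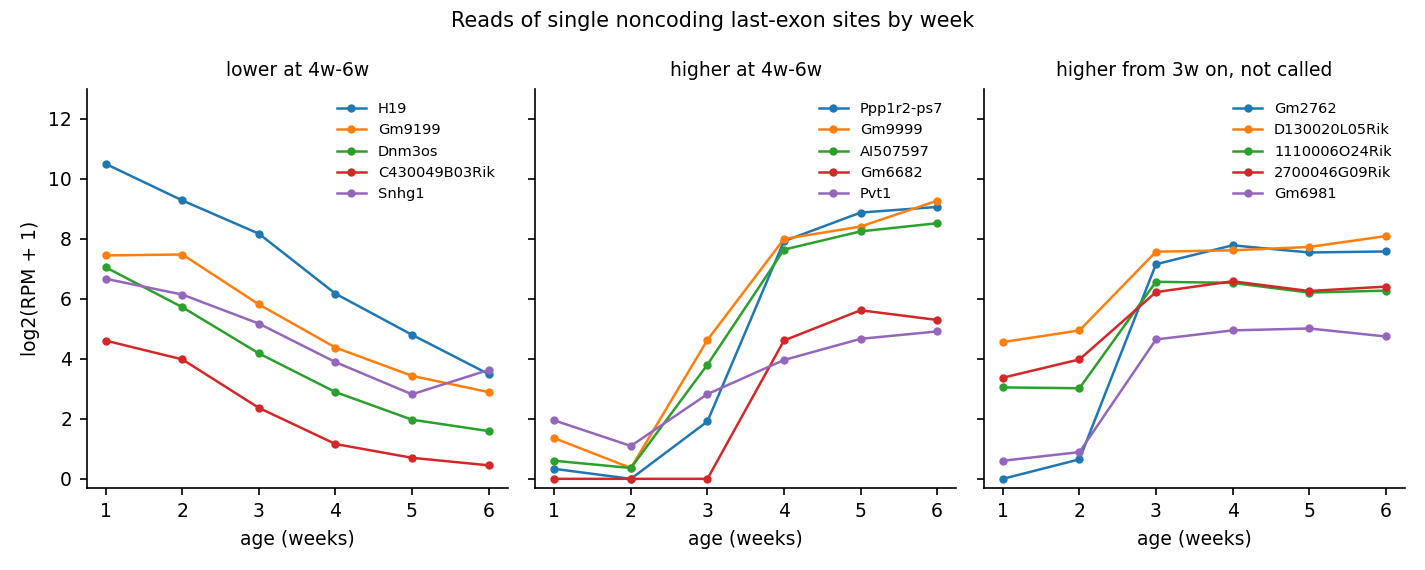
Level of single noncoding last-exon sites, as log2(RPM + 1), by week of age (1 library each), for 5 genes lower at 4w-6w, 5 genes higher at 4w-6w and 5 genes that were not called but stood higher from 3w on (C430049B03Rik is drawn at its site chrX:50407772). H19 ran from 1448 RPM at 1w to 10.3 RPM at 6w, Ppp1r2-ps7 from 0.260 to 536 RPM, and Gm2762 from 0 to 142 RPM between 1w and 3w.

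H19 led the sites that fell. This imprinted gene, transcribed from the maternal allele and known for restraining growth, had a single last-exon site at chr7:149761436 (minus strand, outside coding genes). It had 5572, 2185 and 1040 reads in the younger libraries and 288, 129 and 56 in the older ones. Each older library was below each younger one. The log2 change was -3.42 (SE 0.82, edgeR adjusted p = 0.020), and the RPM ratio of older to younger libraries was 0.0413 (95% interval 0.0376 to 0.0453).

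Dnm3os, transcribed antisense to Dnm3, fell at both of its main sites. That at chr1:164153833 had 507, 182 and 62 reads and then 26, 14 and 11 (log2 change -3.05, SE 0.76, edgeR adjusted p = 0.022), and that at chr1:164153348 had 108, 59 and 10, then 8, 3 and 6 (log2 change -2.53, SE 0.83, edgeR adjusted p = 0.046). H19 and Dnm3os are microRNA hosts, and their mature products (RefSeq, GRCm38.p6) are shown with the seed, bases 2 to 8, in capitals because these are the small RNAs cut from transcripts that fell. The microRNAs themselves were not measured.
miR-675-5p, from H19: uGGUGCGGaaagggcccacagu
miR-675-3p, from H19: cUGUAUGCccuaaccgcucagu
miR-199a-5p, from Dnm3os: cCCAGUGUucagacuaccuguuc
miR-199a-3p, from Dnm3os: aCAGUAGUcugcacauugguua
miR-214-5p, from Dnm3os: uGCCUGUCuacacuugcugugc
miR-214-3p, from Dnm3os: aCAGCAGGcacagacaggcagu
No seed is shared among these 6.

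Gm9199, a transcribed pseudogene at chr14:73426686, had 669, 624 and 200 reads and then 80, 47 and 35 (log2 change -2.40, SE 0.52, edgeR adjusted p = 0.016). C430049B03Rik, an X-linked long noncoding RNA with 13 last-exon sites, the most of any gene here, fell at both of its sites that were tested. Its largest site, at chrX:50407851 and named after its values were seen, went from 293, 155 and 50 reads to 36, 14 and 16 (log2 change -2.10, SE 0.66, edgeR adjusted p = 0.040), and that at chrX:50407772 from 90, 52 and 15 to 5, 3 and 2 (log2 change -3.12, SE 0.72, edgeR adjusted p = 0.018). Smaller falling sites were those of Zfp783, Zfp862, A730017L22Rik and Gm13375, with log2 changes of -2.26 to -2.95 and at most 87 reads in a library. In H19, Gm9199 and these genes the 1w library was the highest or within 5 RPM of the highest.

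The 13 named snoRNA hosts held 21 sites and 5000 reads, and 11 sites in 10 genes were tested. Of these, 3 (27.3%, against 22.6% of all sites) were lower and 0 higher, against 21.8%. At an unadjusted p under 0.05 edgeR gave 0 higher and 7 lower, and DESeq2 called 1 higher and 5 lower. Their median log2 change was -1.33, against 0.03 over all sites. With library totals 9 (81.8%, against 45.8% of all sites) were lower and 0 higher, against 15.8%. The median was then -2.46, against -1.08 over all sites. Snhg1, which holds 8 annotated snoRNAs, had 388, 245 and 127 reads and then 56, 29 and 62 at its main site (log2 change -1.55, SE 0.48, edgeR adjusted p = 0.039). LOC100616095, named Snhg18 in RefSeq, had 69, 56 and 28 reads and then 12, 8 and 9 (log2 change -1.59, SE 0.42, edgeR adjusted p = 0.025). The distal site of 9430008C03Rik, named Snhg17, had 14, 25 and 19 reads, then 3, 2 and 1 (log2 change -2.46, SE 0.50, edgeR adjusted p = 0.013). The main site of this gene had 109, 72 and 45 reads, then 34, 31 and 44. That main site was not called (log2 change -0.24, SE 0.39, edgeR adjusted p = 0.61).

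Snhg8 had the most reads in this list without passing: 463, 375 and 146 reads, then 203, 198 and 284 (log2 change 0.31, SE 0.45, edgeR adjusted p = 0.58). Snhg6 had 247, 142 and 93 reads and then 47, 24 and 46 (edgeR adjusted p = 0.059), and 2810008D09Rik, named Snhg20, had 217, 165 and 60 and then 42, 29 and 29 (edgeR adjusted p = 0.054). Snhg4, Snhg7 and Snhg10 also missed the threshold (edgeR adjusted p = 0.056, 0.47 and 0.11). GENCODE was then taken instead of names, which could be searched only for the 217 of 320 genes that matched it. Of these, 12 held an annotated snoRNA, with 84846 of all 186203 reads. Among their 9 tested sites 2 (22.2%, against 22.6% of all sites) were lower and 0 higher, against 21.8%. At an unadjusted p under 0.05 edgeR gave 1 higher and 4 lower, and DESeq2 called 1 higher and 3 lower. With library totals 7 (77.8%, against 45.8% of all sites) were lower and 0 higher, against 15.8%.

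Imprinted RNAs other than H19 were sparse. The list of 9 genes had 34 sites with 9854 reads, of which H19 held 9270. Of its 3 tested sites 1, that of H19, was lower (33.3%, against 22.6% of all sites) and 0 were higher, against 21.8%. At an unadjusted p under 0.05 edgeR gave 0 higher and 2 lower, the same counts as DESeq2. D7Ertd715e, named Snhg14 in RefSeq and transcribed across the Prader-Willi and Angelman region, had 59, 27 and 17 reads and then 7, 7 and 0 (log2 change -2.06, SE 0.87, edgeR adjusted p = 0.089). Kcnq1ot1, the antisense RNA of another imprinted domain, had 12 sites with 144 reads in all, and Meg3 had 8 sites with 39. Their sites were spread so thinly that none was tested.

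Among well-known long noncoding RNAs 6 sites in 4 genes were tested, 3 of them in Malat1. Of the 6, 1 (16.7%, against 21.8% of all sites) was higher and 0 were lower, against 22.6% (edgeR, 2 lower at an unadjusted p under 0.05, and 1 by DESeq2), with a median log2 change of -0.97. With library totals 1 (16.7%, against 15.8% of all sites) was higher and 4 (66.7%, against 45.8%) lower. Pvt1, the neighbour of the Myc oncogene, was the higher one, with 11, 4 and 22 reads and then 59, 117 and 159 (log2 change 3.91, SE 0.77, edgeR adjusted p = 0.012). Malat1, a nuclear speckle RNA, was read at 2 main sites 2704 bases apart: the upstream one had 169, 125 and 41 reads and then 32, 23 and 11, and the downstream one 150, 100 and 46, then 33, 24 and 21 (edgeR adjusted p = 0.065 and 0.076). Neat1 had 224, 151 and 124 reads and then 55, 71 and 36 at its main site (log2 change -0.83, SE 0.37, edgeR adjusted p = 0.11). Gt(ROSA)26Sor, the locus used for ubiquitous transgenes, had 25 to 57 reads in every library (log2 change 0.32, SE 0.39, edgeR adjusted p = 0.50). Terc, the telomerase RNA, and Rmrp, the RNA of RNase MRP, had reads near the floor, with 30 reads over 7 sites and 3 reads. Only poly(A)+ RNA was sampled, so these counts do not give the level of RNA without a poly(A) tail.

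Mir17hg, host of the miR-17 to miR-92 cluster, had the only tested site of the genes listed by name as microRNA hosts. It had 202, 210 and 153 reads and then 131, 88 and 81, with a log2 change of -0.15 (SE 0.31, edgeR adjusted p = 0.70). By annotation, 10 of the 217 genes matched in GENCODE held a named microRNA, and the other genes could not be searched. Of the sites of these 10 genes, 6 in 5 genes were tested. Of these, 4 were lower (66.7%, against 22.6% of all sites) and 0 higher, against 21.8%. At an unadjusted p under 0.05 edgeR gave 4 lower and 0 higher, the same counts as DESeq2. The median log2 change of the 6 sites was -2.28. With library totals 6 (100%, against 45.8% of all sites) were lower and 0 higher, against 15.8%. The lower sites were that of H19, both of Dnm3os and that of B230206F22Rik, while that of F630028O10Rik had a log2 change of -0.50 (SE 0.41, edgeR adjusted p = 0.33). The Mir17hg cluster is shown because its products fall into families by seed.
miR-17-5p: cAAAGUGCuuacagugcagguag
miR-20a-5p: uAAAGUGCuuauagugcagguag
miR-18a-5p: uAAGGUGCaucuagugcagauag
miR-19a-3p: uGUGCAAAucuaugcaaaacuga
miR-19b-3p: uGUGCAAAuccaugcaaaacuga
miR-92a-3p: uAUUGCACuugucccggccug
The seeds of miR-17-5p and miR-20a-5p are the same, as are those of miR-19a-3p and miR-19b-3p.

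X-linked genes are described apart because the X chromosome is silenced during male meiosis. There were 50 X-linked noncoding sites in 20 genes with 9077 reads, 6158 of them at the main Ppp1r2-ps7 site. Of the 8 tested, 3 were higher (Ppp1r2-ps7, Ppp1r2-ps9 and 1600025M17Rik), 3 were lower (both C430049B03Rik sites and that of B230206F22Rik, named Ftx) and 2 were not called. On autosomes 30.5% of 128 noncoding sites were higher and 15.6% lower, whereas over all 460 X-linked sites tested 19.8% were higher and 50.4% lower. With 8 sites no difference between these shares was tested. The higher 1600025M17Rik site, at chrX:53573842, had 0, 0 and 4 reads, then 19, 31 and 39 (log2 change 5.07, SE 1.03, edgeR adjusted p = 0.013).

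Genes of the X inactivation centre were read weakly. Ftx, a positive regulator of Xist, had 32, 17 and 10 reads and then 2, 2 and 4 at chrX:100764907 (log2 change -2.03, SE 0.57, edgeR adjusted p = 0.030). Xist, the RNA that coats the inactive X of females, had 0, 9 and 39 reads at chrX:100656572, then 5, 2 and 1. Its count thus stood highest at 3w, and the site did not pass the filter. Enox, named Jpx in RefSeq, had 4 sites with 3 to 26 reads per library in all.

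How the 2 main last-exon sites of a gene shared its reads was compared next. Of the 320 genes, 159 had 1 last-exon site and 161 had more, with a median of 2. The 2 sites with most reads were taken as the proximal (Prx-pA) and the distal (Dis-pA) site, and 20 genes had at least 20 reads at the pair in every library. At 4w-6w, 5 of the 20 genes (25.0%) had a lower Dis-pA to Prx-pA ratio and 0 a higher one (edgeR, 0 at an unadjusted p under 0.05). Over all 4271 genes tested, 34.5% had a lower and 1.29% a higher ratio, and the median log2 change was -1.11 over these and -1.04 over the 20. The share of the 20 with a lower ratio was thus below that of all genes, and no difference between them was tested. Without 1w or 4w 3 genes were lower, and without 5w or 6w 2 were.

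Peg13, an imprinted RNA transcribed from an intron of Trappc9, changed most. Its Dis-pA at chr15:72636030 had 50, 20 and 21 reads and then 21, 13 and 13, and its Prx-pA, 3240 bases upstream, had 0, 0 and 1 and then 8, 9 and 18. The distal share was 100%, 100% and 95.5% at 1w to 3w and 72.4%, 59.1% and 41.9% at 4w to 6w (log2 change of the ratio -5.56, SE 1.12, edgeR adjusted p = 0.0035). At 6w the Prx-pA held more reads than the Dis-pA. The sites differ in their poly(A) signal, as the bases before each show.
Peg13 Prx-pA, chr15:72639270-72639299: gctgcacactaaaaatttgggcttctttga
Peg13 Dis-pA, chr15:72636030-72636059: taAATAAAtgttgcaagtgtgcctcctgaa

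In Pisd-ps2, a pseudogene of the phosphatidylserine decarboxylase gene, the share moved little but past the test. The Dis-pA at chr17:3062435 had 586, 533 and 805 reads, then 573, 557 and 365, and the Prx-pA, 1694 bases upstream, 0, 0 and 1, then 8, 7 and 10. The distal share was 100%, 100% and 99.9% and then 98.6%, 98.8% and 97.3% (log2 change of the ratio -4.62, SE 0.85, edgeR adjusted p = 0.0021). The call rests on 25 proximal reads in the older libraries. In Neat1 the Prx-pA lay 269 bases upstream, with 0, 4 and 2 reads and then 3, 5 and 6, and the distal share went from 97.4% to 100% in the younger libraries to 94.8%, 93.4% and 85.7% (log2 change of the ratio -2.80, SE 0.93, edgeR adjusted p = 0.039).

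In 9430008C03Rik (Snhg17) the Prx-pA was the main site throughout, and the Dis-pA lay 2079 bases downstream. Its distal share was 11.4%, 25.8% and 29.7% at 1w to 3w and 8.11%, 6.06% and 2.22% at 4w to 6w (log2 change of the ratio -2.20, SE 0.75, edgeR adjusted p = 0.044). Both sites carry AATAAA.
9430008C03Rik Prx-pA, chr2:158181515-158181544: gttgtgcAATAAAccccataggttaattca
9430008C03Rik Dis-pA, chr2:158179436-158179465: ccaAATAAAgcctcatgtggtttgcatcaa
In 2810408I11Rik the sites were 75 bases apart and both rose. The distal share was 95.7%, 93.2% and 95.3% and then 89.0%, 84.7% and 84.1% (log2 change of the ratio -1.55, SE 0.44, edgeR adjusted p = 0.020). Calls for Peg13 and Pisd-ps2 were kept in all 6 fits without a library, those for 2810408I11Rik, Neat1 and 9430008C03Rik in 3, 2 and 1.

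**Figure D4:**
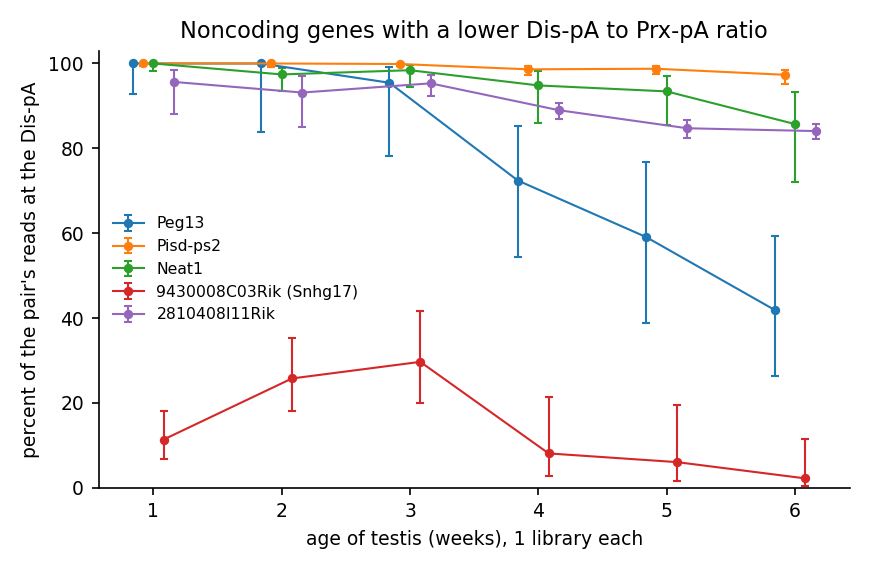
Percent of the reads of a gene's 2 main last-exon sites that fell at the distal site, by week of age (1 library each), for the 5 noncoding genes with a lower ratio at 4w-6w; bars are 95% Wilson intervals and cover counting error only. Peg13 fell from 100% at 1w to 41.9% at 6w, whereas Pisd-ps2 stayed above 97%.

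Genes that were not called included 1810026B05Rik, named Chaserr in RefSeq, whose distal share was 67.6%, 60.0% and 59.6%, then 46.4%, 47.4% and 35.3% (log2 change of the ratio -1.17, SE 0.47, edgeR adjusted p = 0.083). Its 2 sites were 135 bases apart, and the upstream one rose by itself (edgeR adjusted p = 0.014). Malat1 went the other way in its estimate, with a distal share of 44.4% to 52.9% in the younger and 50.8% to 65.6% in the older libraries (log2 change of the ratio 0.42, SE 0.45, edgeR adjusted p = 0.50). Among 22 genes with several sites and at least 20 reads in every library, the same site led in all 6 libraries in 18. The exceptions were Peg13, 1810026B05Rik, Malat1 and B330016D10Rik.

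The poly(A) signal was searched as AATAAA and otherwise ATTAAA, on the transcribed strand, in the 40 bases before each position. Of the 701 noncoding sites 269 (38.4%) had AATAAA and 98 (14.0%) had ATTAAA, 52.4% together (95% Wilson interval 48.7% to 56.0%). At all 44921 other last-exon sites the share was 53.1% (52.6% to 53.5%). A further 26.5% of noncoding sites held another hexamer with 1 base changed from AATAAA, and 21.1% held none of these. In a window 61 to 100 bases before the position, away from where the signal acts, the share with either hexamer was 4.85%. Of sites with at least 50 reads, 71.0% of noncoding sites (63.6% to 77.4%) and 71.7% of other sites had either hexamer, and of sites with 5 reads or fewer 42.8% (37.1% to 48.6%) and 33.5%.

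Changes with age are given next by poly(A) signal, as counts with no test between the classes. Of the 76 tested noncoding sites with AATAAA, 18 were higher and 16 lower, with a median log2 change of 0.00. With ATTAAA the counts were 4 and 3 of 20. With another 1-base variant 11 of 26 were higher and 4 lower (median 2.67), and with none 9 of 14 were higher and 0 lower (edgeR, 10 higher and 0 lower at an unadjusted p under 0.05, and the same counts by DESeq2), with a median of 4.85. Among other last-exon sites 11.3% of those with AATAAA, 14.6% with ATTAAA, 32.0% with a variant and 46.9% with none were higher. In the same order 29.1%, 26.1%, 18.2% and 12.6% were lower, and the medians were -0.49, -0.36, 0.70 and 2.02. With library totals as the scale, 8 of the 14 noncoding sites with none (57.1%) remained higher and 0 were lower, against 40.8% and 26.2% of other sites with none. The AATAAA sites became 12 higher (15.8%) and 36 lower (47.4%), against 6.78% and 57.4% of other sites with AATAAA. The 9 include Gm6682, 5033406O09Rik, Thap6, Ppp1r2-ps9 and 2 close sites of AI507597.

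**Figure D5:**
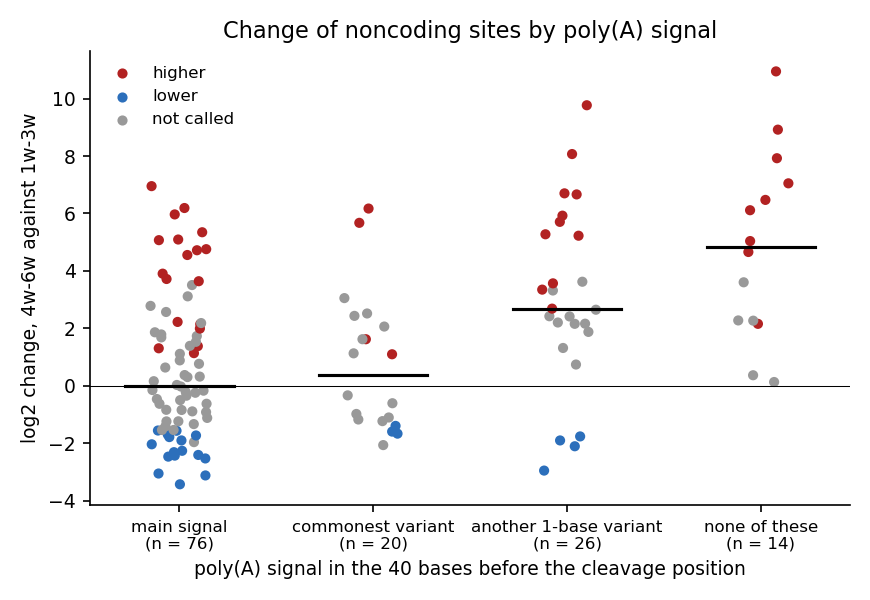
Log2 change at 4w-6w against 1w-3w of the 136 tested noncoding sites, grouped by the poly(A) signal found in the 40 bases before the cleavage position; each point is a site, coloured by its call, and the black bar is the group's median. Medians were 0.00, 0.38, 2.67 and 4.85 from left to right.

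Most noncoding sites stood clear of coding genes in the annotation: 557 were outside them, 105 lay antisense within a coding gene, 33 in an intron and 6 in an exon on the same strand. Of the 19 tested antisense sites 9 (47.4%) were higher and 3 (15.8%) lower, against 21.8% and 22.6% of all sites (median 2.06), which includes 3 sites of AI507597. With library totals they became 7 higher (36.8%, against 15.8% of all sites) and 6 lower (31.6%, against 45.8%). By RefSeq type, 509 sites were of long noncoding RNAs, of which 30 of 104 tested (28.8%) were higher and 19 (18.3%) lower (median 1.22). Of 140 sites of transcribed pseudogenes, 8 of 21 tested (38.1%) were higher and 2 (9.52%) lower (median 2.21). With library totals these became 22 (21.2%) and 40 (38.5%) for long noncoding RNAs and 7 (33.3%) and 5 (23.8%) for pseudogenes. The shares of all sites under that scaling were 15.8% higher and 45.8% lower.

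RefSeq (GRCm38.p6) types 17 of the sites, in 9 genes, as protein coding, so the noncoding label of the table differs from it for these. The most abundant is 1810058I24Rik at chr6:35211639, which had 1386, 1558 and 804 reads, then 449, 302 and 351 (log2 change -0.98, SE 0.37, edgeR adjusted p = 0.067). Its smaller site, 346 bases downstream, was lower (log2 change -1.66, SE 0.43, edgeR adjusted p = 0.024). Of 7 tested sites in these genes 3 (42.9%, against 21.8% of all sites) were higher and 2 (28.6%, against 22.6%) lower. With library totals 1 (14.3%, against 15.8%) was higher and 3 (42.9%, against 45.8%) were lower.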

How the data were processed

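The authors mapped 3'READS reads from testes of 6 ages to mm9 with Bowtie2, kept poly(A) site-supporting reads with at least 2 unaligned Ts, and joined positions within 24 nt. The deposited values are read counts per site, not normalized. Entries sharing a site were counted once in library totals and left out of tests. Counts of sites listed once were tested at 4w-6w against 1w-3w with edgeR 4.0.16 (R 4.3.3; filterByExpr, TMM, quasi-likelihood F test, Benjamini-Hochberg adjusted p under 0.05 over all sites); the SE is the log2 change divided by the square root of F. The ratio test had a term per library and needed 20 reads per pair and library. DESeq2 1.42.0, other scalings, no filter, age as a linear term and each library left out were alternatives. The procedures were tested on simulated counts. Python 3.11.15, pandas 2.3.3 and scipy 1.17.1 were used otherwise. All 45622 last-exon sites listed once lay on NCBIM37 (mm9), read with GENCODE vM1, and 314 of 320 genes matched RefSeq (GRCm38.p6) by gene ID; its coordinates were not used.

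Genes were named by rule: the 10 sites with most reads, the 10 largest called changes each way, list genes with at least 50 reads, called ratio genes, and the 3 sites with most reads among those highest in each week. Outside this rule, and chosen after their values were seen, are 0610012G03Rik, 1600025M17Rik, 1810026B05Rik, B330016D10Rik, BC029722, Enox, F630028O10Rik, Gm20268, Kcnq1ot1, Meg3, Pldi, Ppp1r2-ps9, Rmrp and Terc, and further sites of genes the rule names. The sites and lists were chosen with earlier results of these data known. P-values measure only the spread among these libraries, which may be partly technical and holds age.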

Additional observations from a re-analysis of the deposited data

How the results depend on the processing

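The count of noncoding sites higher at 4w-6w, 42, became 100 with no filter on low counts and 65 with DESeq2, and leaving out 1 library gave 13 to 90. Over all sites the 3996 higher calls became 8626 with no filter, 6264 with DESeq2 and 1605 to 8771 with 1 library left out. The count of lower sites, 23, became 15 with DESeq2 size factors in edgeR, 50 with library totals and 37 with age as a linear term, and 0 to 58 with 1 library left out. Over all sites the 4143 lower calls became 2902, 8420 and 5386 in the same order, and 47 to 7134 with 1 library left out. Genes with a lower Dis-pA to Prx-pA ratio, 5 of 20, became 2 of 7 with at least 50 reads in every library and 1 of 17 for the most upstream against the most downstream site, and 2 to 4 with 1 library left out. The difference in read share changed sign to 0.0020 percentage points without the 10 sites with most reads (exact permutation p = 0.8), and ran from -0.171 to -0.0405 with 1 library left out. The percent of sites highest at 6w rose from 23.5% to 33.3% with at least 200 reads and 39.5% with TMM-scaled libraries. The percent with AATAAA or ATTAAA was 46.5% in a window of 10 to 30 bases and 71.0% for sites with at least 50 reads. Causes of these shifts were not tested beyond the change of setting itself.

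Of the called sites and ratios, 0610012G03Rik (-0.053) and BC029722 (-0.028) changed sign with library totals, as did 11 of the 71 sites that were not called, and no other alternative turned one. No paired analysis was possible because each week has 1 library and the labels give no replicate numbers. Depth limits most sites: 565 of 701 could not be tested, and intervals cover counting error only.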

Other observations

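Genes described above also had sites outside the last exon, in reads listed once. Introns of 104 of the genes held 315 sites with 14660 reads, with 758, 861 and 716 RPM at 1w to 3w and 517, 428 and 366 RPM at 4w to 6w. The largest was in Gm2011 at chr3:40652008, with 392, 1435 and 1374 reads at 1w to 3w and 985, 805 and 657 at 4w to 6w. An intronic site of Pisd-ps2 at chr17:3069256 had 764, 506 and 305 reads, then 230, 205 and 122 (log2 change -0.70, SE 0.41), and one of 2810410L24Rik at chr11:120049272 had 728, 268 and 134, then 41, 19 and 14 (log2 change -3.12, SE 0.70). In C030037D09Rik an intronic site at chr11:88581294 had 1, 0 and 6 reads, then 59, 109 and 139 (log2 change 6.11, SE 1.03). These genes were named after their values were seen.

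Sites upstream of and antisense to the start of 44 of the genes went from 19.2 RPM at 1w to 52.8 RPM at 5w and 46.4 RPM at 6w, over 62 sites.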
